A study of Mus musculus with 2 samples.

Results

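The 10 circadian clock genes Per1, Per2, Per3, Cry1, Cry2, Arntl, Nr1d1, Nr1d2, Dbp and Ciart were taken by name from the 25556 genes counted in single nuclei of the mouse brainstem, and all 10 were found. Nuclei came from 1 wild-type (WT) and 1 heterozygous (HET) female mouse, each 41 days old and untreated. The HET mouse carried the Scn1aA1783V knock-in allele, a missense change in the alpha subunit of a voltage-gated sodium channel that models Dravet syndrome. It came from a floxed-stop Scn1aA1783V male and a Sox2-cre female, whose cre acts in the early embryo and so in nearly all tissues, and the WT mouse was of the same crosses and the same C57BL/6J background. The question was whether the clock genes, and with them the apparent phase of the clock, differed between the libraries. The hour at which each brain was collected is not given in the sources used here, and with 1 mouse per genotype a difference between genotypes cannot be told apart from a difference between 2 mice, 2 libraries or 2 collection times.

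The mammalian clock is a loop of transcription. BMAL1, the protein of Arntl, pairs with CLOCK or its paralog NPAS2 and activates genes through E-boxes. Among these are the Per and Cry genes, whose proteins return to block the activators, and Nr1d1 and Nr1d2, which encode the REV-ERB receptors that silence Arntl through ROR elements. Dbp encodes an output factor that activates genes through D-boxes, and Ciart encodes a further repressor of the CLOCK and BMAL1 pair. In most mouse tissues the Per genes, Nr1d1, Nr1d2, Dbp and Ciart peak from day to evening, while Arntl, Npas2 and, weakly, Clock peak about opposite to them.

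The promoters of the members carried different sets of these elements. RefSeq sequences of 250 bases before each start site (build GRCm38.p6) were held for 9 of the 10 members, and Per2 had no entry. The windows of Per1, Per3, Ciart and Arntl are shown, since these genes stand for the E-box and D-box targets and for the antiphase arm in the results that follow. Each is written 5′ to 3′ on the strand of the gene, with capitals for an E-box (CACGTG), a D-box (TTATGTAA) or a ROR half-site (AGGTCA, whose other strand reads TGACCT). The Per1 windows lie at chr11:69098699-69098948 and chr11:69099902-69100151 on the plus strand, the Per3 window at chr4:151044666-151044915 on the minus strand, the Ciart window at chr3:95882229-95882478 on the minus strand and the first Arntl window at chr7:113207215-113207464 on the plus strand.
Per1 start site 1: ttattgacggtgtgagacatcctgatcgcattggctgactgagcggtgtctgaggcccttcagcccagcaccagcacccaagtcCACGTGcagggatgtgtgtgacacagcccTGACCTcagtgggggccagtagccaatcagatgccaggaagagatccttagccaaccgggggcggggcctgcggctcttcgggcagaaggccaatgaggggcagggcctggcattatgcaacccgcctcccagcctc
Per1 start site 2: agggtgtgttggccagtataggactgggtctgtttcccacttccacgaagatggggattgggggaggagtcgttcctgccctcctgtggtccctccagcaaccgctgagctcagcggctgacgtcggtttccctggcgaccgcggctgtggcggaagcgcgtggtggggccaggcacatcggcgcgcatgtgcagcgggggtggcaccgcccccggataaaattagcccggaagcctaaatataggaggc
Per3: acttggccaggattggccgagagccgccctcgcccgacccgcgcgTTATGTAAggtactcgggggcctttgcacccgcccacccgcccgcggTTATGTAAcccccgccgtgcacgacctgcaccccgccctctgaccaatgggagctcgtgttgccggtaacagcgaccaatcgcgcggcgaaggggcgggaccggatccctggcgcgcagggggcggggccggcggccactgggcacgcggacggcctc
Ciart: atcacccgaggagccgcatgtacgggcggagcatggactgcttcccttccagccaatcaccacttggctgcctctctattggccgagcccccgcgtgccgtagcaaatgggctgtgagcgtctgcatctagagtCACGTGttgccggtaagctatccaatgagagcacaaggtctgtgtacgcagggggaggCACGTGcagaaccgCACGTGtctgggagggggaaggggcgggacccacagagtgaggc
Arntl start site 1: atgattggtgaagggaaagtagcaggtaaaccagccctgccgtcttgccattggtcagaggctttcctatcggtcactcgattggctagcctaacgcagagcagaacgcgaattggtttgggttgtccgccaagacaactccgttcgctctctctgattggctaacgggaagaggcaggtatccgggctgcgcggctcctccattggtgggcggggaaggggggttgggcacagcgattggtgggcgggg

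The E-box was found on either strand in the windows of 3 of the 9 members, Per1, Cry1 and Ciart, against 6.02% of all 32851 promoter windows of that length. Ciart held 3 copies, beginning at positions -116, -58 and -44 from the start site. The E′-box CACGTT, a weaker form of the same element, was found in Cry1, Cry2 and Nr1d1, against 3.85% of all windows. Per3 was the only member with the D-box in its window, in 2 copies at -205 and -158, against 0.931% of all windows with either TTATGTAA or TTACGTAA. The ROR half-site was found in Per1 and Nr1d2, against 14.0%. Neither Arntl window, nor that of Dbp, held any of these letters. The CRE TGACGTCA, found in 1.55% of all windows, and the glucocorticoid receptor half-site AGAACA, found in 16.1%, matched none of the members' windows. A match, or the lack of one, is a description of these exact letters in the windows only. A window without them does not show that the gene lacks such an element.

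The libraries held 70301390 UMIs in 9259 WT nuclei and 66176778 UMIs in 9022 HET nuclei. Levels are given as CPM, the UMIs of a gene scaled to a library total of 1000000, and a difference is the HET level over the WT level on the log2 scale, with 95% intervals that cover counting error only. Of the 16 deposited clusters, 12 held 30 or more nuclei of both genotypes and entered the comparison. The largest were neuron.1 (5032 WT and 4079 HET nuclei), oligo (1767 and 2382) and astro (609 and 709), and in both libraries neuronal markers were at higher CPM in the neuronal clusters than elsewhere, as were oligodendrocyte markers in oligo and astrocyte markers in astro. Over all genes with at least 100 UMIs, the median log2 ratio was -0.10. Short genes were lower in HET, with a median of -0.47 in the shortest of 10 equal bins of gene length and 0.12 in the longest. The median share of mitochondrial UMIs was 0.343% in WT and 0.458% in HET, that of ribosomal protein UMIs 0.696% and 0.407%, and 23 barcodes occurred in both libraries.

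Over all nuclei, the members differed little between the libraries. Their median log2 ratio was 0.02, with 5 higher and 5 lower in HET, while 39.1% of all genes tested were higher. An interval clear of 0 was common at this depth, above 0 in 24.8% and below 0 in 39.8% of genes with at least 20 UMIs, and the members had 3 of each. Per1 was the only member at least 1.5-fold higher in HET, where 7.46% of the 18153 genes tested were, and no member was at least 1.5-fold lower, where 13.6% of genes were. At 1.52-fold Per1 was close to that limit, and it fell under it in 3 of the 8 alternatives that could change its ratio. Its log2 ratio was then 0.57 with equal cluster weights, 0.58 without the highest doublet scores and 0.55 with nuclei of the same type in both labels. In the plot of levels over all nuclei, Per1 is the member whose points stand farthest apart.

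**Figure D1:**
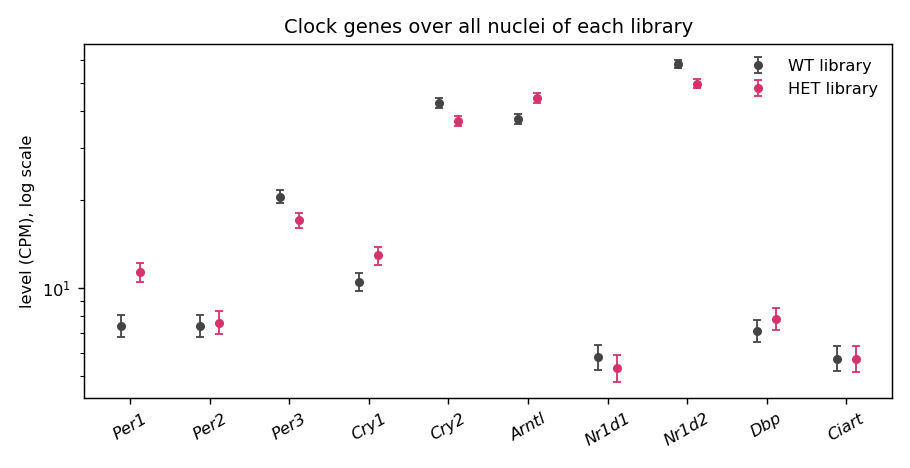
Level (CPM, log axis) of the 10 members in the WT (grey) and HET (pink) library, summed over all nuclei; points are 1 library each and bars are exact 95% Poisson intervals. Per1 stood at 7.40 CPM (WT) and 11.3 CPM (HET), while Ciart read 5.73 CPM in both; levels are not scaled to gene length, so heights should not be compared between genes.

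Among the repressors, the 3 Per genes went different ways. Per1, a light- and stress-inducible member on chromosome 11 (69095217 to 69109960, plus strand, GENCODE vM21), had 520 UMIs in WT (7.40 CPM) and 746 in HET (11.3 CPM), a log2 ratio of 0.61 (0.44 to 0.77). Per2, its closest paralog in function, had 520 UMIs in WT and 503 in HET, a log2 ratio of 0.04 (-0.14 to 0.22). Per3, which is not required for rhythm, had 1436 UMIs in WT (20.4 CPM) and 1124 in HET (17.0 CPM), which gave a log2 ratio of -0.27 (-0.38 to -0.15). The ratio interval therefore lay above 0 for Per1, held 0 for Per2 and lay below 0 for Per3. The cryptochromes, the partners of the PER proteins, also split. Cry1 was higher in HET, at 10.5 CPM in WT and 12.9 CPM in HET (log2 ratio 0.30, 0.15 to 0.44). Cry2 was lower, at 42.7 and 37.2 CPM (log2 ratio -0.20, -0.28 to -0.12). Overlapping genes limit some of these values, since whether the counting used strand is not given in the sources used here. Cry2 overlaps D930015M05Rik on the other strand, which had 348 UMIs in WT and 706 in HET, and Arntl, Nr1d1, Dbp and Ciart also have counted genes on the other strand, of which Thra at Nr1d1 (5623 and 4649 UMIs) and C920021L13Rik at Ciart (1918 and 1596 UMIs) had more UMIs than the member. Per3 overlaps Camta1 on its own strand, so counting by strand would not separate them where they overlap. Camta1 had 41930 UMIs in WT and 46450 in HET, a log2 ratio of 0.23.

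The antiphase arm was slightly higher in HET. Arntl had 2648 UMIs in WT (37.7 CPM) and 2943 in HET (44.5 CPM), a log2 ratio of 0.24 (0.16 to 0.32). Its partner gene Npas2 read 23.9 and 29.0 CPM (log2 ratio 0.28, 0.18 to 0.37), and Clock 138 and 146 CPM (log2 ratio 0.08, 0.04 to 0.12). All 3 intervals lay above 0, as did 24.8% of genes with at least 20 UMIs, and each fold was at most 1.21. Relative to genes of like length the log2 ratios were 0.19 for Arntl, 0.16 for Npas2 and 0.03 for Clock. The REV-ERB genes, repressors of Arntl, had ratios below 0. Nr1d1 had 406 UMIs in WT and 351 in HET, a log2 ratio of -0.12 (-0.33 to 0.09) that turned to 0.18 relative to genes of like length, and Nr1d2 had 4082 and 3297 UMIs, a log2 ratio of -0.22 (-0.29 to -0.15). The intervals of Dbp and Ciart held 0. Dbp read 7.13 and 7.81 CPM (log2 ratio 0.13, -0.05 to 0.31), and Ciart had 403 and 379 UMIs (log2 ratio 0.00, -0.21 to 0.20). Both are short genes, and relative to genes of like length their ratios moved to 0.43 and 0.47.

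By cell type, the ratio of Per1 was larger in the pooled non-neuronal nuclei than in the pooled neuronal nuclei. Single clusters did not all follow this split. Neuron.3 was at 1.06 (-0.07 to 2.38) and micro at 0.84 (-0.28 to 2.08), both with intervals that held 0. In the nuclei of all non-neuronal clusters the WT level of Per1 was 6.90 CPM and the HET level 22.9 CPM, a log2 ratio of 1.73 (1.37 to 2.12), and in those of the neuronal clusters 7.49 and 8.45 CPM, a log2 ratio of 0.17 (-0.02 to 0.37). In the oligodendrocyte cluster it had 31 UMIs in WT (5.31 CPM) and 165 in HET (20.9 CPM), a log2 ratio of 1.98 (1.42 to 2.58). In the astrocyte cluster it had 22 UMIs (10.4 CPM) and 69 (26.5 CPM), a log2 ratio of 1.35 (0.64 to 2.11). In neuron.1 it had 349 UMIs (7.23 CPM) and 341 (8.39 CPM), a log2 ratio of 0.22 (0.00 to 0.43). The 2 glial intervals do not overlap that of neuron.1, but the difference between cell types has no replicate check, since each library is 1 mouse. The UMIs were spread over many nuclei. The 165 UMIs of the HET oligodendrocyte cluster came from 158 nuclei with at most 2 each, and the 31 of WT from 31 nuclei, at a median depth of 2854 and 2738 UMIs per nucleus.

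The same direction was seen within finer clusters. Per1 was higher in HET in each of the 3 finer clusters of oligodendrocytes, with log2 ratios from 1.45 to 2.38, and in both finer clusters of astrocytes, at 1.27 and 1.78, and all 5 intervals lay above 0. In neuron.1 it was higher in 6 of 7 finer clusters, with ratios from -0.34 to 0.47 and no interval above 0. All of these clusters come from the same 2 libraries, so their agreement is not repeated evidence, and no share over all genes was computed for it. Over the clusters with at least 20 Per1 UMIs, Per1 was higher in HET in 8 of 9, and 3 intervals lay above 0. The third of these was the fibro cluster, with 5 UMIs in WT (10.9 CPM) and 32 in HET (76.4 CPM). Only 40 of its 266 nuclei carried the same type in the deposited reference label, against 4131 of 4149 in the oligodendrocyte cluster and 1288 of 1318 in the astrocyte cluster. In the WT library the order of Per1 levels over the 12 clusters ran from neuron.5 (12.7 CPM) to neuron.7 (1.97 CPM), and every pair of neighbours in that order had overlapping intervals. In the HET library it ran from fibro (76.4 CPM) over astro (26.5 CPM) and oligo (20.9 CPM) to neuron.4 (6.81 CPM), and 10 of 11 neighbours overlapped.

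**Figure D2:**
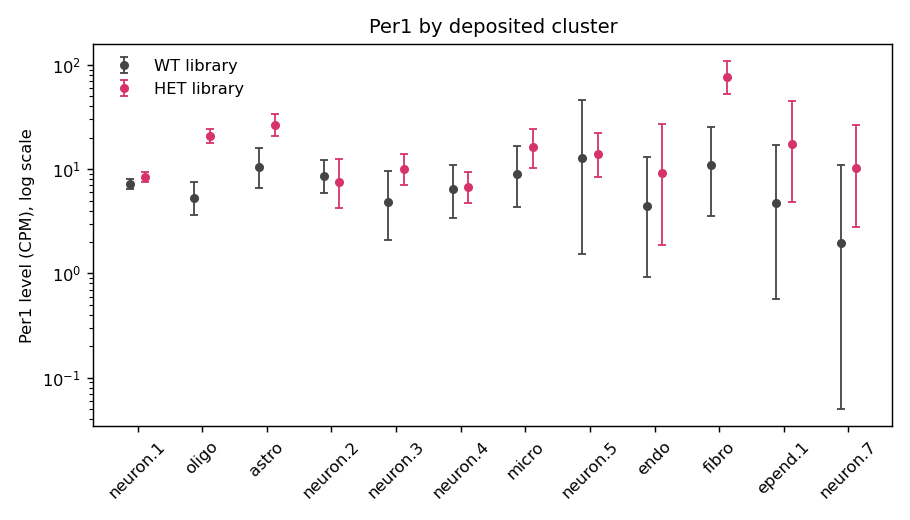
Per1 level (CPM, log axis) in the 12 compared clusters, ordered by their number of nuclei, in the WT (grey) and HET (pink) library; points are 1 library each and bars are exact 95% Poisson intervals. The intervals of the libraries are apart in oligo (5.31 and 20.9 CPM), astro (10.4 and 26.5 CPM) and fibro (10.9 and 76.4 CPM) and overlap or meet in the other clusters.

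The other members had other ratios in these nuclei. In the oligodendrocyte cluster, 6 members had at least 100 UMIs. Of these Per1 was at least 1.5-fold higher, as were 6.57% of the 10464 genes tested there, and Per3 at least 1.5-fold lower, as were 12.8%. Per3 had 85 UMIs in WT (14.5 CPM) and 56 in HET (7.10 CPM) there, a log2 ratio of -1.03 (-1.55 to -0.53), and was lower in all 3 finer clusters. Per2, at 13 and 12 UMIs, was too sparse to show a difference of any but large size (log2 ratio -0.55, -1.81 to 0.70). Nr1d2 (log2 ratio -0.44, -0.70 to -0.17) and Cry2 (-0.40, -0.68 to -0.11) were lower in HET. Of the 10 members 1 interval lay above 0 and 3 below, as did 15.6% and 25.1% of genes with at least 20 UMIs in this cluster. The median over the 10 members was -0.10, with 5 higher and 5 lower. Over the 6 members with at least 100 UMIs it was -0.17, with 3 higher and 3 lower. Over all genes tested, which had the same minimum, it was -0.10.

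In the astrocyte cluster, 8 of the 10 members were lower in HET and the median was -0.35, against 59.0% lower and a median of -0.09 over all 7156 genes tested. Of the 8 members with at least 100 UMIs, the minimum for all genes tested, 7 were lower and the median was also -0.35. None of the 8 was at least 1.5-fold higher or lower, as were 4.68% and 13.2% of genes, and Per1, with 91 UMIs in all, was not among them. Nr1d1 and Dbp each had 89 UMIs in WT (42.1 CPM) and 74 in HET (28.4 CPM), a log2 ratio of -0.57 (-1.03 to -0.10). Cry2 was also lower (log2 ratio -0.42, -0.71 to -0.14). Arntl was the only member other than Per1 at a higher level, with 135 UMIs (63.9 CPM) in WT and 221 (84.9 CPM) in HET, or 0.41 (0.10 to 0.73) as a log2 ratio. Npas2, whose level was highest in astrocytes, was higher as well, at 249 and 345 CPM (log2 ratio 0.47, 0.31 to 0.63). In all, 2 of the 10 member intervals lay above 0 and 3 below, as did 10.4% and 18.3% of genes with at least 20 UMIs.

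In neuron.1 all 10 members had at least 100 UMIs and none was 1.5-fold higher or lower, as were 6.34% and 12.3% of the 16493 genes tested. The median was 0.11, with 6 higher and 4 lower. Dbp was higher, with 242 UMIs in WT (5.01 CPM) and 268 in HET (6.59 CPM), a log2 ratio of 0.40 (0.14 to 0.65). Cry1 (log2 ratio 0.31), Arntl (0.28) and Per2 (0.25) were also higher with intervals above 0, and Nr1d2 (-0.22), Per3 (-0.19) and Cry2 (-0.16) lower with intervals below 0. Those 4 and 3 of 10 stand against 22.7% and 36.2% of genes with at least 20 UMIs. In the plot of the members in the 3 largest clusters, Per3, Cry2 and Nr1d2 lie left of 0 and Arntl right of 0 in each panel.

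**Figure D3:**
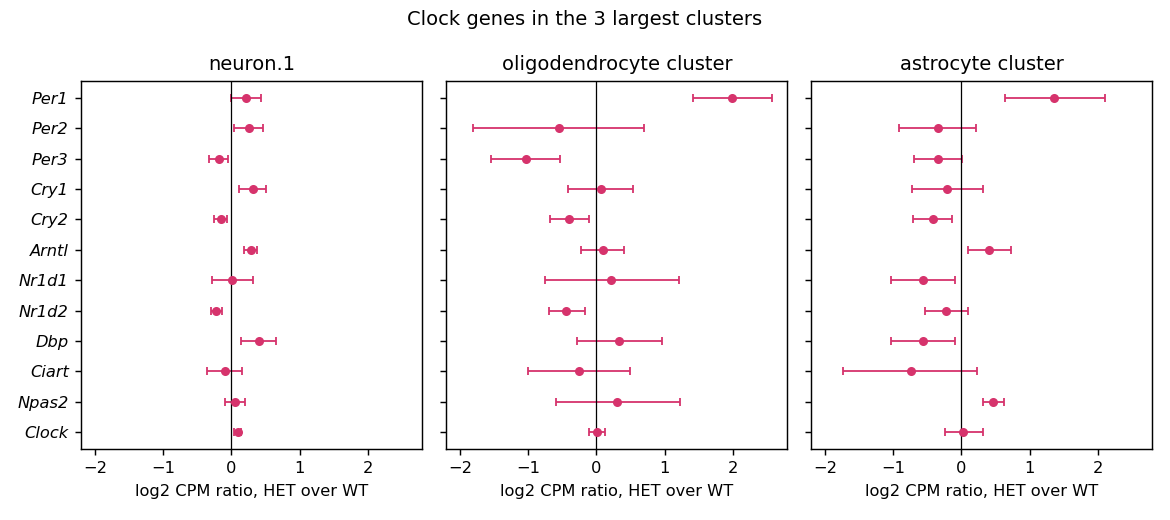
Log2 ratio of CPM, HET over WT, of the 10 members and of Npas2 and Clock in the neuron.1, oligodendrocyte and astrocyte clusters; points compare 1 library with 1 library and bars are 95% counting intervals. Per1 stands at 0.22, 1.98 and 1.35, and Per3 at -0.19, -1.03 and -0.34.

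Across the clusters with at least 20 UMIs of the gene, Per3 was lower in HET in 10 of 10, Nr1d2 in 10 of 11 and Cry2 in 8 of 11, while Arntl was higher in 10 of 12 and Npas2 in 9 of 9. All clusters come from the same 2 libraries, so their agreement is not repeated evidence. Over all nuclei 60.9% of genes tested were lower in HET and 39.1% higher, and no share over all genes across clusters was computed for these counts. Apart from Cry2, most single intervals held 0, with 2 below 0 for Per3, 3 below and 1 above (fibro, log2 ratio 0.60) for Nr1d2, 3 above for Arntl and 2 above for Npas2, and for Cry2 6 lay below 0. Among the 12 compared clusters, astrocytes held the highest CPM of Per2 and Per3 in both libraries (Per3 at 68.1 and 53.8 CPM), and of Cry2 (104 and 77.6 CPM), though the interval of each overlapped that of the next cluster in order.

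To compare the apparent phase, the mean log2 ratio of the 3 antiphase genes (Arntl, Npas2 and Clock) was taken from that of the 7 day-to-evening genes (the Per genes, Nr1d1, Nr1d2, Dbp and Ciart). A value below 0 means that the balance in HET lay toward the antiphase genes. Over all nuclei this contrast was -0.17 (-0.25 to -0.10), from means of 0.02 and 0.20. It was -0.09 (-0.19 to 0.01) in neuron.1, -0.10 (-0.50 to 0.30) in the oligodendrocyte cluster and -0.51 (-0.77 to -0.25) in the astrocyte cluster. Smaller clusters went both ways. The contrast was -0.72 (-1.14 to -0.30) in neuron.2 and -0.57 (-1.03 to -0.10) in neuron.3, where a gene of the contrast had as few as 4 and 7 UMIs in a library. It was 0.39 in micro, 0.21 in fibro and 0.21 in neuron.4 with intervals that held 0, where the fewest UMIs were 6, 2 and 1. Per1 had the largest ratio of the day-to-evening genes, and without it the contrast was -0.27 over all nuclei and -0.77 in astrocytes. The direction over all nuclei did not hold once gene length was taken into account. The day-to-evening genes include short ones (Ciart 3749 bp, Dbp 5116 bp, Nr1d1 7402 bp), the antiphase genes are long (Arntl 106662 bp, Npas2 169506 bp, Clock 94925 bp), and short genes as a whole were lower in HET. Set against the median of genes in the same bin of length, the contrast turned to 0.11 over all nuclei, to 0.21 in neuron.1 and to 0.20 in the oligodendrocyte cluster, and in the astrocyte cluster it was -0.10. In neuron.2 and neuron.3 it stayed below 0, at -0.35 and -0.29, and in micro, fibro and neuron.4 it was 0.65, 0.55 and 0.49. The size of the contrast in each of these populations, and its sign over all nuclei, in neuron.1 and in the oligodendrocyte cluster, depended on this choice, so no direction of a phase difference is given. A shift of phase could not be tested against the spread between mice, with 1 library per genotype.

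**Figure D4:**
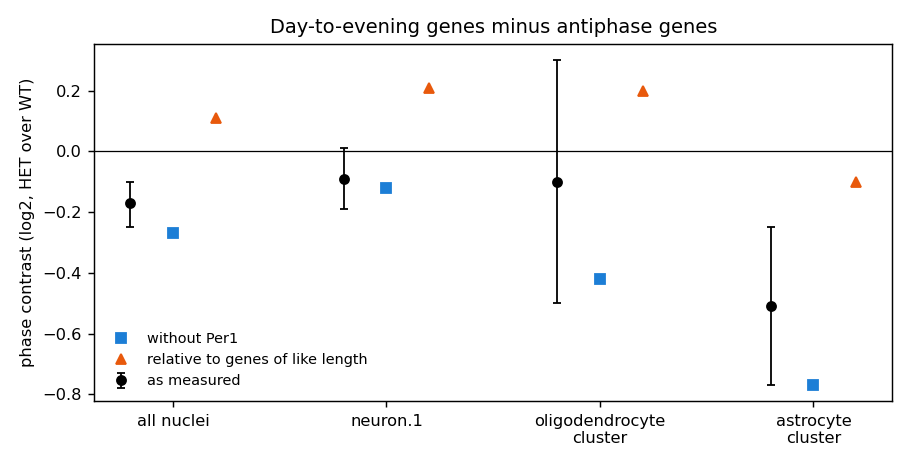
Phase contrast (mean log2 ratio, HET over WT, of the 7 day-to-evening genes minus that of the 3 antiphase genes) over all nuclei and in the 3 largest clusters, as measured (circles, bars 95% counting intervals), without Per1 (squares) and relative to genes of like length (triangles). As measured, the values run from -0.51 to -0.09, and relative to genes of like length they run from -0.10 to 0.21.

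Of the other clock pathway genes compared, the outputs Wee1 and Cirbp were the ones past 1.5-fold over all nuclei, both lower in HET. Over all genes tested, 13.6% were at least 1.5-fold lower. In direction, 39.1% of them were higher and 60.9% lower, with a median of -0.10, and the counts below stand against these shares. The lists were chosen with earlier results of these data known, so the counts are descriptions only. Of the 4 activator genes 3 were higher (median log2 ratio 0.16), of the 5 REV-ERB and ROR receptor genes 2 (median -0.12) and of the 3 E-box repressors, Ciart among them, 1 (median 0.00). Of the 8 kinase and turnover genes, which set the stability of the PER and CRY proteins, 2 were higher and 6 lower over all nuclei, with a median of -0.02. The lowest was Csnk1e, a casein kinase that phosphorylates PER proteins, at 27.2 and 18.9 CPM (log2 ratio -0.53, -0.63 to -0.42). Of the 4 PAR bZIP and D-box factors, 3 were higher, with Hlf at 0.24 (0.15 to 0.34). Of the 5 output genes, 4 were lower, with a median of -0.38. The output list shares Usp2 with the kinase and turnover list and Tsc22d3 with the glucocorticoid-responsive list below. Values relative to genes of like length were not taken for these lists. Wee1, a cell cycle kinase gene with E-boxes, read 18.6 and 11.4 CPM (log2 ratio -0.71, -0.84 to -0.58), and Cirbp, a cold-inducible RNA-binding protein gene, 44.9 and 27.4 CPM (log2 ratio -0.71, -0.79 to -0.63).

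Per1 is also induced apart from the clock, by glucocorticoid hormone and by neuronal activity, and genes known for each were compared in the same nuclei. Both lists were chosen with earlier results of these data known, so their counts beside the shares are descriptions only. In the oligodendrocyte cluster 6 of 8 glucocorticoid-responsive genes were higher in HET, with a median log2 ratio of 0.88 and 5 intervals above 0, where 39.0% of all genes tested were higher and 15.6% had such an interval. Sgk1, a kinase gene, had 123 UMIs in WT and 797 in HET there (log2 ratio 2.26, 1.99 to 2.55). Zbtb16, a transcription factor gene, had 187 and 916 (log2 ratio 1.86, 1.63 to 2.09), and Fkbp5, a chaperone of the glucocorticoid receptor, 74 and 201 (log2 ratio 1.01, 0.62 to 1.41). Mt1 (-0.40) and Errfi1 (-0.50) were lower, with intervals below 0. In astrocytes 5 of 8 were higher and the median was 0.41, where 41.0% of all genes tested were higher. Of these 8, Fkbp5 (8 and 29 UMIs), Sgk1 (19 and 59) and Ddit4 (36 and 57) fell under the 100 UMIs set for genes tested. Among the rest, Zbtb16 and Tsc22d3 were higher and Mt1, Mt2 and Errfi1 lower. Zbtb16 was at 2.11 (1.68 to 2.57) and Fkbp5 at 1.56 (0.39 to 2.90), while Mt1 (-0.29) and Errfi1 (-0.90) were lower with intervals below 0. In neuron.1 2 of 8 were higher and the median was -0.26, where 39.1% of all genes tested were higher, with Zbtb16 at 0.87 and Tsc22d3 at -0.58. The summed level of the list was 365 CPM in WT and 542 CPM in HET in oligodendrocytes, 666 and 684 CPM in astrocytes and 213 and 217 CPM in neuron.1. The activity-induced genes differed in direction between cell types. All 8 were lower in HET in neuron.1, with a median of -1.29 and all 8 intervals below 0, where 60.9% of all genes tested were lower and 36.2% had such an interval, and Junb read 21.8 and 5.26 CPM and Fos 7.52 and 2.24 CPM. In the oligodendrocyte cluster 6 of the 8 had at least 20 UMIs, 2 higher and 4 lower, with a median of -0.12. Nr4a1 had the 1 interval above 0 there (log2 ratio 1.20, 0.08 to 2.47), where 15.6% of genes had one. In the nuclei of all non-neuronal clusters 5 of the 8 were higher and 3 lower, with a median of 0.12. Nr4a1 (1.16) and Fosb (2.62) then had intervals above 0 and Dusp1 (-0.56) below 0. The share over all genes was not computed for those nuclei. The part of either group in the Per1 difference was not tested.

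**Figure D5:**
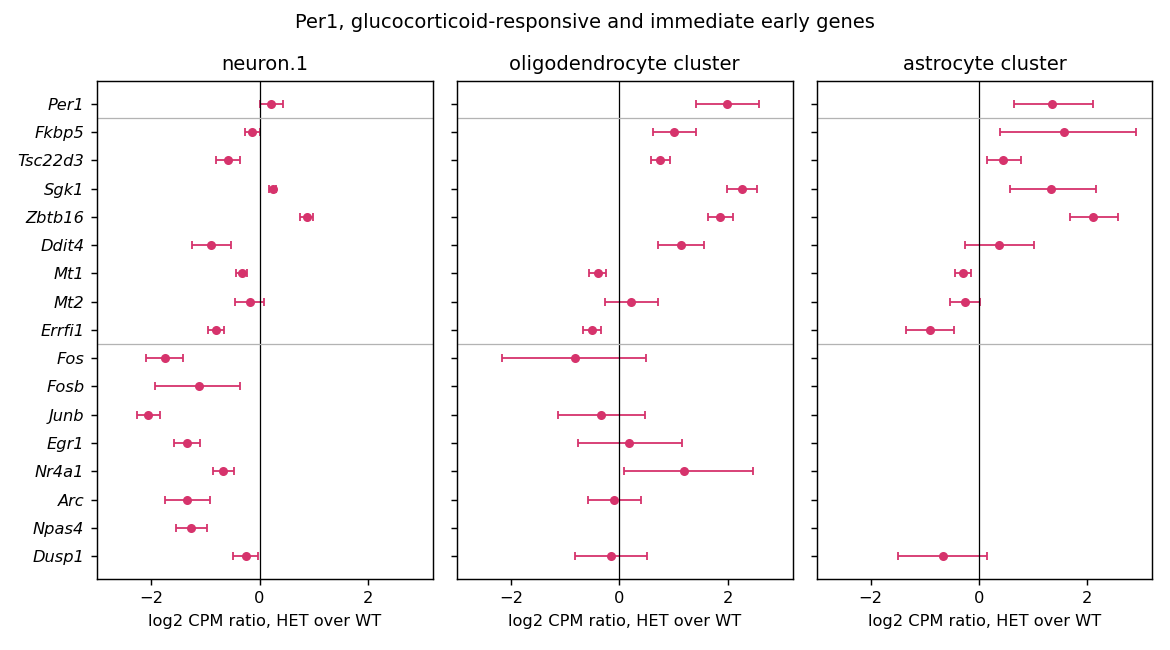
Log2 ratio of CPM, HET over WT, of Per1 (top), 8 glucocorticoid-responsive genes (middle) and 8 activity-induced immediate early genes (bottom) in the 3 largest clusters, shown for genes with at least 20 UMIs; bars are 95% counting intervals. In the oligodendrocyte panel Sgk1 at 2.26, Per1 at 1.98 and Zbtb16 at 1.86 lie far right of 0, and in the neuron.1 panel the 8 immediate early genes lie left of 0.

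Other values also moved with the libraries in these clusters. The summed level of 3 choroid plexus markers, Ttr, Folr1 and Kl, was 717 CPM in WT and 90.0 CPM in HET in the oligodendrocyte cluster and 639 and 71.9 CPM in the astrocyte cluster. The median share of mitochondrial UMIs was 0.675% and 0.867% in oligodendrocytes and 0.669% and 0.719% in astrocytes, and that of ribosomal protein UMIs 1.02% and 0.576%, and 0.926% and 0.498%. The summed level of 3 neuronal markers was 234 and 319 CPM in oligodendrocytes and 220 and 305 CPM in astrocytes. Their part in the Per1 result was not tested. In the oligodendrocyte cluster the log2 ratio of Per1 lay between 1.97 and 2.21 under 7 other choices of nuclei and scaling, and in the astrocyte cluster between 1.26 and 1.62.

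By the pattern of log2(CPM + 1) over 24 points, which are the 12 clusters in each library and so share libraries and depth, the genes most like Per1 among 11648 were Phykpl (Pearson's r 0.78), Gm11146 (0.77) and Wwp1 (0.74). Those most like Dbp were Adhfe1 (0.78), the member Per3 (0.77) and E430024I08Rik (0.75). Those most like Arntl were Dtx3 (0.78), Ago2 (0.78) and Cyp7b1 (0.77).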

How the data were processed

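Nuclear RNA of 1 WT and 1 HET brainstem was profiled with 10x Chromium 3′ v3.1 chemistry. The counts are UMIs per gene and nucleus as the authors deposited them, from Cell Ranger (version not given in the sources used here) on mm10, with nuclei under 1000 genes or over 15% mitochondrial UMIs, and mitochondrial, hemoglobin and some other genes, removed in Seurat 4.1.0. The clusters, the reference labels, the doublet score and the percent values per nucleus were also the authors' and were used as deposited. Every deposited nucleus is classed there as a singlet, by a caller not given in the sources used here.

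UMIs were summed per library and cluster and scaled to CPM. Intervals were exact (Poisson for a level, conditional binomial for a ratio) at 95%, and cover counting error only. Those of the phase contrast were normal approximations from the Poisson variances, which are rough where a gene has few UMIs. No test between genotypes was possible with 1 library each. Genes were counted as higher or lower from 1.5-fold, with at least 100 UMIs, and directions were given from 20 UMIs. The floor for a count of 0 was 3 UMIs. Named genes were the 10 members, lists of clock pathway, glucocorticoid-responsive and immediate early genes, the genes that overlap a member, and the 3 most alike (genes with at least 1000 UMIs) for Per1, Dbp and Arntl. The members and lists were chosen with earlier results of these data known. Positions came from GENCODE vM21, which placed all 10 members. Scripts used Python 3.11.15, numpy 2.4.6, pandas 2.3.3 and scipy 1.17.1, and were tested on simulated data. Other scalings, weights and choices of nuclei were tried as alternatives.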

Additional observations from a re-analysis of the deposited data

Results flagged for a closer look

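Some genes had counting intervals on opposite sides of 0 in different clusters. In each case 1 library was compared with 1 library, and the difference between clusters was not tested. Dbp was the only member of this kind among the 3 largest clusters, at a log2 ratio of 0.40 in neuron.1 and -0.57 in astrocytes, a difference of 0.96. Rorb, a receptor gene of the ROR family, was at 0.21 in astrocytes, which lay above neuron.1 (-0.09, difference -0.29) and the oligodendrocyte cluster (-0.43, difference -0.64). Among the glucocorticoid-responsive genes, Tsc22d3 was at -0.58 in neuron.1, a difference of -1.34 from the oligodendrocyte cluster (0.76) and of -1.03 from astrocytes (0.45). Fkbp5 was at -0.13 in neuron.1, a difference of -1.14 from the oligodendrocyte cluster (1.01) and of -1.69 from astrocytes (1.56). Ddit4, a stress-induced gene, was at -0.89 in neuron.1 and 1.14 in the oligodendrocyte cluster, a difference of -2.02. Nr4a1, an immediate early gene, was at -0.67 and 1.20, a difference of -1.87.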

How the results depend on the processing

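The phase contrast over all nuclei reversed to 0.11 relative to genes of the same length bin, and the median of the members then moved to 0.18. Under the same choice the contrast was 0.21 in neuron.1 and -0.10 in astrocytes. As a mean over nuclei of CPM, the contrast over all nuclei was -0.25. Without Per1, a choice made after seeing the data, it was -0.27 over all nuclei and -0.77 in astrocytes. The count of members at least 1.5-fold higher over all nuclei went from 1 to 0 with equal cluster weights, without the 5% of nuclei with the highest doublet scores, and with only nuclei of the same type in both labels, where Per1 was at 0.57, 0.58 and 0.55. The causes of these shifts were not tested. Of 76 values of the main results under alternatives, 5 of them in smaller clusters and added after seeing the data, 66 stayed within the set limits, 9 moved and 1 reversed. Some of the 66 could not have moved. Setting ratios against the median gene, or leaving ribosomal protein genes out of the totals, shifts all ratios alike and so cancels in the contrast. A lower minimum of UMIs changes nothing over all nuclei, where all 10 members had at least 100 UMIs. Of 101 values of single genes, 90 stayed and 11 moved. No paired analysis was possible because each genotype has 1 library. Sparse clusters limit the rest, as with Per2 at 13 and 12 UMIs in the oligodendrocyte cluster.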

Other observations

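The partners of Arntl and the receptors that act on it had their own distribution over cell types. Among the 12 clusters compared, Npas2 was highest in the astrocyte cluster of both libraries, at 249 CPM in WT and 345 CPM in HET, with the fibro cluster next at 50.1 and 69.2 CPM and oligodendrocytes lowest at 3.08 and 3.80 CPM. Among the same clusters Clock was lowest in astrocytes, at 95.1 and 97.2 CPM, and read 166 and 167 CPM in oligodendrocytes. Rora, an activator of Arntl, read 2731 CPM in WT and 3437 CPM in HET in astrocytes, against 265 and 284 CPM in oligodendrocytes. Rorb read 832 and 959 CPM in astrocytes and 60.5 and 57.0 CPM in neuron.1.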
